A study of Mus musculus with 4 samples.

Results

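The genes described here are 10 secreted signals by which a tumour cell can act on leukocytes, vessels and matrix: the chemokines Ccl2, Ccl7, Cxcl1, Cxcl10, Cxcl12 and Cxcl16, and the cytokines and growth factors Csf1, Vegfa, Spp1 and Tgfb1. They were chosen by Ensembl ID from a table of 53465 gene IDs, and 10 of 10 IDs were found. No threshold on a measured value was used, but the read counts of these 4 libraries, among them the higher counts of Ccl2 with the Usp5 guide, were known when the set was put together. The values are therefore given as a description. The cells were Hepa 1-6, a mouse hepatocellular carcinoma line, carrying either a control guide (sgcontrol, genotype WT in the labels) or a guide against the deubiquitinating enzyme Usp5 (sgUsp5, genotype Usp5 Knockdown). From each kind of cells 1 library was made from the lysate before precipitation (input, 10% of the lysate) and 1 from RNA recovered with an antibody to YTHDF1 (RNA immunoprecipitation, RIP), which gave 4 groups of 1 library. The text speaks of an sgcontrol and an sgUsp5 line, although Hepa 1-6 is the origin of each. The labels do not say whether a line is a clone or a pool.

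YTHDF1 is a cytoplasmic reader of N6-methyladenosine, a methyl mark on mRNA, and is known for its part in the translation of marked transcripts. Chemokines are small secreted proteins that guide leukocytes through receptors on their surface; the CC chemokines Ccl2 and Ccl7 attract monocytes, and the CXC chemokines attract neutrophils or lymphocytes. In liver tumours Ccl2 and Csf1 are best known for the recruitment and upkeep of macrophages, Vegfa for vessel growth and Tgfb1 for restraint of immune cells.

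The libraries held between 29898171 and 33941019 counts. Levels are in CPM, the counts scaled to a library of 1000000 after TMM normalisation, which scales each library so that most genes agree between libraries. They are not divided by transcript length, so they are compared between libraries and not between genes. The table gives no gene names, and the RefSeq gene table used here pairs 0 of 49997 genes with Ensembl IDs. The symbols of the 10 genes are those listed with their IDs when the set was chosen. Usp5 itself, receptors, other chemokines and markers of hepatocytes and other cell types were therefore not analysed here, and neither the knockdown nor the cell type of the libraries was checked.

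Of the 10 genes, 7 reached at least 1 CPM in all 4 libraries: Ccl2, Cxcl1, Cxcl16, Csf1, Vegfa, Spp1 and Tgfb1. Cxcl10 did so in 3 libraries, Ccl7 in 2 and Cxcl12 in 1. The comparisons used the 12920 genes whose mean over the libraries was 1 CPM or more, and 9 of the 10 were among them. Ccl7 passed this filter only through the libraries in which it was high. Cxcl12 did not pass. The plot of levels by library shows the spread of the 10 genes, from Cxcl12, without reads in 3 libraries, to Spp1, with up to 10388 reads.

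**Figure D1:**
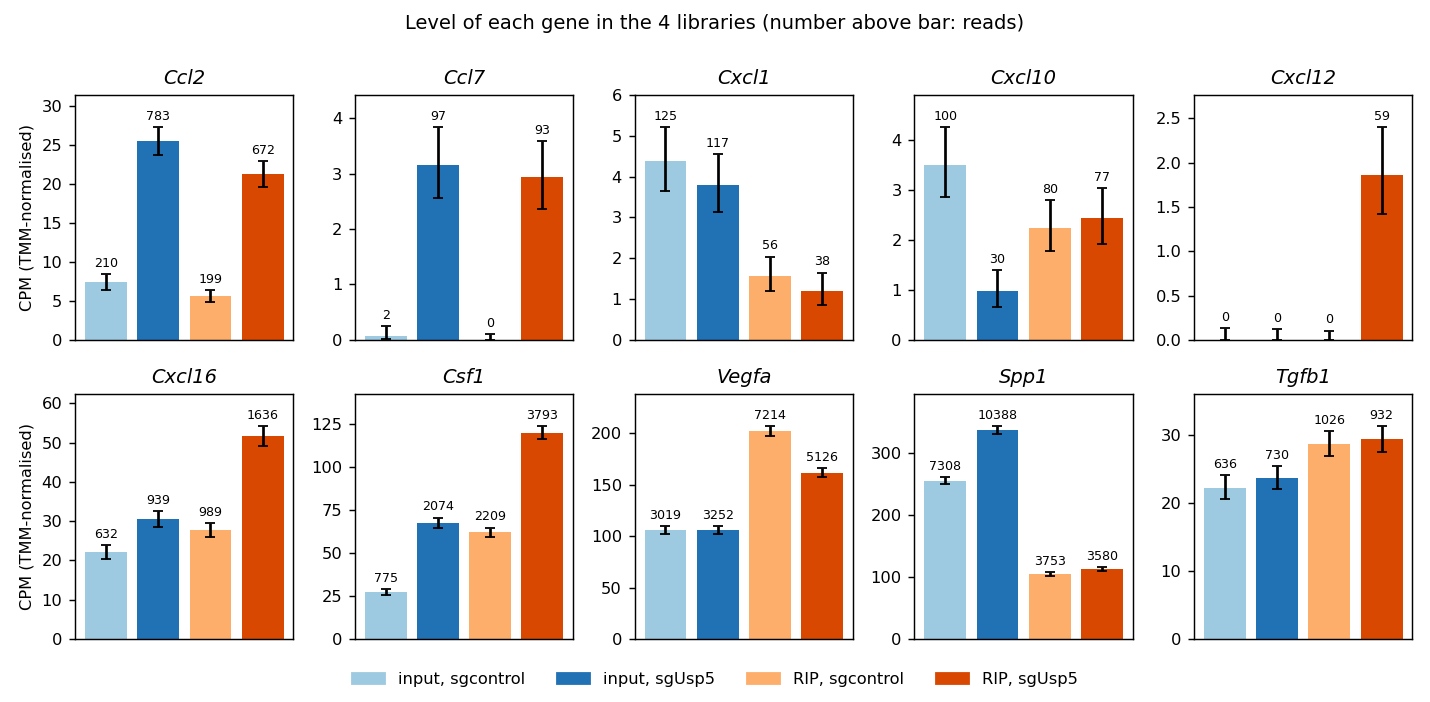
Level of the 10 genes in the 4 libraries, in CPM after TMM normalisation; the number above each bar is the number of reads, and error bars are exact 95% Poisson intervals of the count, which cover counting error only. Ccl2 and Ccl7 were higher in both sgUsp5 libraries (darker bars), Spp1 and Cxcl1 were lower in both RIP libraries (orange) than in the inputs (blue), and Cxcl12 had reads in 1 library.

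With 1 library per group, ratios have no replicate check. A gene is called higher or lower where the difference reached 2-fold and its 95% counting interval did not include equality. This interval, of the Clopper-Pearson kind, covers counting error only: no molecular identifiers are described, so PCR copies are counted as reads. The scatter between libraries was larger. From log2 CPM 0 to 6 it was 57.9 times the binomial variance (median over genes) between the inputs and 18.4 times between the RIP libraries. A widened interval, from counts divided by these factors, is given beside the counting interval where it changes the call. Spp1 and Vegfa, at a mean log2 CPM of 7.48 and 7.11, and Ccl7 and Cxcl12, at -1.61 and -4.26, lie outside the range of 0 to 6. For these genes the factors were carried over from that range. The factors come from the pairs of sgUsp5 and sgcontrol libraries, so they contain any effect of the Usp5 guide. For RIP over input the RIP counts were divided by 18.4 and the input counts by 57.9. The scatter between RIP and input was itself larger, at 91.8 times in sgcontrol and 78.2 times in sgUsp5 cells. It contains any enrichment and was not used, so widened intervals of RIP over input are narrower than that scatter would give.

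Which of these genes differed with the Usp5 guide was read first from the inputs and then from the RIP libraries. Ccl2 and Ccl7, ligands of the monocyte receptor Ccr2, were higher in sgUsp5 cells in both. Csf1, the macrophage growth factor, was higher in the inputs and just under 2-fold in the RIP libraries. Cxcl10, which attracts activated T cells, was lower in the inputs alone. In bulk RNA, fewer cells that make a transcript and less of it per cell cannot be told apart.

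In the inputs 3 of the 9 genes compared (Ccl2, Ccl7 and Csf1) were called higher in sgUsp5 cells, beside 12.4% of all 12920 genes, and 1 (Cxcl10) was called lower, beside 12.1%. With the widened interval the inputs left Ccl2 and Csf1 higher, beside 0.782%, and 0 lower, beside 0.882%. In the RIP libraries 2 (Ccl2 and Ccl7) were called higher, beside 4.56%, and 0 were called lower, beside 4.64%. The widened interval kept both, beside 0.557%, and again called 0 lower, beside 0.611%. Ccl7 passed the filter only through the libraries in which it was high, so its call is not independent of the filter. Without Ccl7, 2 of 8 genes were called higher in the inputs and 1 of 8 in the RIP libraries. These shares depend on abundance. At a mean log2 CPM under 3, where Ccl7, Cxcl1 and Cxcl10 lie, 28.7% of 4214 genes were called higher in the inputs. In that class 28.5% were called lower. At 3 to 5, where Ccl2, Cxcl16 and Tgfb1 lie, 9.41% of 3580 genes were called higher. At 5 or more, where Csf1, Vegfa and Spp1 lie, 1.01% of 5126 genes were called higher. Over the 9 genes the median log2 ratio was 0.40 in the inputs and 0.11 in the RIP libraries, and over all genes compared it was -0.01 in each; without Ccl7 the medians were 0.24 and 0.11.

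Ccl2 (ENSMUSG00000035385, chr11:82035577-82037452, RefSeq, GRCm38.p6) encodes a chemokine that draws monocytes into inflamed tissue and tumours. It had 210 reads in the sgcontrol input and 783 in the sgUsp5 input, or 7.36 and 25.5 CPM. The RIP libraries held 199 reads for sgcontrol and 672 for sgUsp5, or 5.58 and 21.2 CPM. Both sgUsp5 libraries thus lay above both sgcontrol libraries, and within each line the RIP was the lower of its libraries. The log2 ratio of sgUsp5 over sgcontrol was 1.79 in the inputs (counting interval 1.57 to 2.02), or 3.45-fold. In the RIP libraries it was 1.92 (1.70 to 2.16), or 3.79-fold. With the widened interval the lower bound came down to 0.05 in the inputs and 0.92 in the RIP libraries, so in the inputs it lay just above no difference.

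Being called higher in both pairs of libraries was found for 1.58% of all genes compared, and lower in both for 1.68%. Higher in both held for 9 of the 3580 genes (0.251%) in the abundance class of Ccl2. Ratios at least as high as those of Ccl2 in both pairs, at a mean CPM at least that of Ccl2, were found for 2 of 7343 genes, Ccl2 included. As far down in both pairs were 2 genes. Over all 12920 genes these numbers were 61 and 68. This count was chosen after the values of Ccl2 were seen. Input and RIP of a line come from the same lysate, so the pairs share their cells.

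Ccl7 (ENSMUSG00000035373, chr11:82045712-82047525) encodes a related monocyte chemokine and is the next gene after Ccl2 on the chromosome, with 8259 bases and 0 annotated genes between them. It had 2 reads in the sgcontrol input and 97 in the sgUsp5 input, a ratio of 45.0 (counting interval 12.1 to 377). In the RIP libraries it had 0 reads for sgcontrol and 93 for sgUsp5. The upper limit that a count of 0 allows is 3 counts, or 0.0841 CPM there. Set against this limit, the level in the sgUsp5 RIP was 34.9-fold higher. With the counting error of both libraries, the lower bound of the log2 ratio was 4.80. The transcript was thus near the limit of detection in sgcontrol cells and at 3.15 and 2.93 CPM in the sgUsp5 input and RIP. With the widened interval the input ratio of Ccl7 was not called. The RIP ratio was called, at a log2 ratio of 3.56 from the divided counts, with a lower bound of 0.07, just above no difference. At most 2 reads in both sgcontrol libraries with at least 93 in both sgUsp5 libraries was seen for 1 of the 53465 IDs, Ccl7 itself, and the reverse for 1 ID. The limits are the reads of Ccl7 itself, set after the values were seen, so Ccl7 meets them by construction. Of the 53465 IDs, 31435 had 0 reads in every library and could not show the pattern.

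Csf1 (ENSMUSG00000014599, chr3:107741048-107760469) encodes the ligand on which macrophages depend for survival. It had 775 reads in the sgcontrol input and 2074 in the sgUsp5 input, or 27.2 and 67.4 CPM. In the RIP libraries it had 2209 and 3793 reads, or 61.9 and 120 CPM. In each fraction the sgUsp5 library was the higher. The log2 ratios were 1.31 in the inputs (1.19 to 1.43, widened 0.37 to 2.34) and 0.95 in the RIP libraries (0.87 to 1.03, widened 0.62 to 1.29). Csf1 was thus past 2-fold in the inputs and, at 1.93-fold, not in the RIP libraries. In its abundance class, a mean log2 CPM of 5 or more, 1.01% of genes were called higher in the inputs. The mean log2 CPM of Csf1 was 5.92, and in the class below, at 3 to 5, that share was 9.41%.

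Cxcl16 (ENSMUSG00000018920, chr11:70454389-70459984) encodes a chemokine made as a membrane protein, which is shed to attract T cells with the receptor Cxcr6. It was read 632 times in the sgcontrol input and 939 times in the sgUsp5 input, and 989 and 1636 times in the RIP libraries. Its log2 ratios of sgUsp5 over sgcontrol were 0.46 (0.32 to 0.61) and 0.90 (0.78 to 1.01). Both ratios were under 2-fold; the widened interval included 0 in the inputs (-0.73 to 1.72) and not in the RIP libraries (0.39 to 1.41). Likeness to Ccl2 was measured by the root mean square difference of log2 CPM over the 4 libraries, each gene centred on its mean. Among the other genes of the set at 10 CPM or more, Cxcl16 (0.736), Csf1 (0.772) and Tgfb1 (0.959) were nearest. Spp1 (0.979) and Vegfa (1.16) were the rest at that level. Tgfb1 did not rise with the guide as Ccl2 did: its log2 ratios were 0.09 in the inputs and 0.03 in the RIP libraries. Of 8369 other IDs at 10 CPM or more, 247 were nearer to Ccl2 than Cxcl16 was, 384 nearer than Csf1 and 2945 nearer than Tgfb1. The likeness is thus not particular to these genes.

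**Figure D2:**
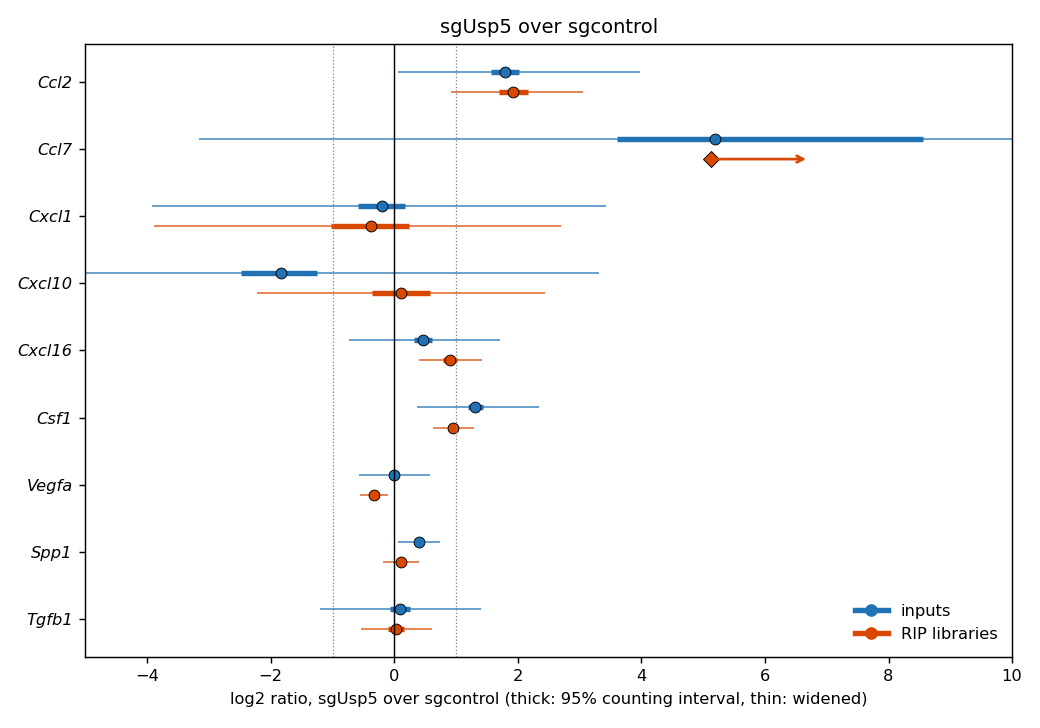
Log2 ratio of sgUsp5 over sgcontrol for the 9 genes compared, in the inputs (blue) and the RIP libraries (orange). Thick lines are 95% counting intervals, thin lines the widened intervals, which run off the axis where they end at the frame; the diamond with an arrow is a lower bound (Ccl7, 0 reads in the sgcontrol RIP), and dotted lines mark 2-fold. Ccl2 lies beyond 2-fold in both, at 1.79 and 1.92, and Cxcl10 lies below 2-fold lower in the inputs, at -1.83, and near 0 in the RIP libraries.

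Cxcl10 (ENSMUSG00000034855, chr5:92346638-92348889), an interferon-induced ligand of Cxcr3 on T cells, had 100 reads in the sgcontrol input and 30 in the sgUsp5 input, or 3.50 and 0.975 CPM. The RIP libraries held 80 and 77 reads, or 2.24 and 2.43 CPM. The sgUsp5 input stood below the other 3 libraries, which lay between 2.24 and 3.50 CPM. Its log2 ratio was -1.83 in the inputs (-2.49 to -1.24) and 0.11 in the RIP libraries (-0.35 to 0.59). The input ratio was not called with the widened interval, which ran from -12.04 to 3.32.

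Cxcl1 (ENSMUSG00000029380, chr5:90891245-90893121), a neutrophil chemokine, was read 125 and 117 times in the sgcontrol and sgUsp5 inputs and 56 and 38 times in the RIP libraries. Both log2 ratios of sgUsp5 over sgcontrol had counting intervals that included 0: -0.20 (-0.58 to 0.17) in the inputs and -0.38 (-1.02 to 0.23) in the RIP libraries. The widened intervals were -3.93 to 3.43 in the inputs and -3.89 to 2.69 in the RIP libraries. A change within these wider limits was not detectable here. Cxcl12 (ENSMUSG00000061353, chr6:117168535-117181368), the stromal ligand of Cxcr4, had 59 reads in the sgUsp5 RIP and 0 in the other 3 libraries. Set against the limit of 3 counts for a count of 0, that is 22.1-fold above the sgcontrol RIP. The lower bound of this log2 ratio was 4.12 on counting error and -0.93 when widened, which included 0. At least 50 reads in the sgUsp5 RIP with 0 in the other libraries was found for 17 IDs, and the same with the sgcontrol input, the sgUsp5 input or the sgcontrol RIP as the lone library for 166, 153 and 9 IDs. Reads in a lone library thus occurred in all 4 libraries.

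Vegfa, Spp1 and Tgfb1 differed by less than 2-fold with the guide in both fractions. Vegfa (ENSMUSG00000023951, chr17:46016993-46032377), the main growth factor for vessels, had 3019 and 3252 reads in the sgcontrol and sgUsp5 inputs, or 105.8 and 105.7 CPM. In the RIP libraries it had 7214 and 5126 reads, or 202 and 162 CPM, a log2 ratio of -0.32 (-0.37 to -0.27, widened -0.55 to -0.10). The inputs were level, and the sgUsp5 RIP was the lower of the RIP libraries by less than 2-fold. Spp1 (ENSMUSG00000029304, chr5:104435111-104441053), which encodes osteopontin, a matrix protein that binds integrins and Cd44, had 7308 and 10388 reads in the inputs, or 256 and 338 CPM. Its log2 ratio there was 0.40 (0.36 to 0.44, widened 0.06 to 0.74). In the RIP libraries 3753 and 3580 reads gave 0.10 (0.04 to 0.17, widened -0.19 to 0.39). Spp1 was thus higher in the sgUsp5 input by 1.32-fold and close to level in the RIP libraries. Tgfb1 (ENSMUSG00000002603, chr7:25687002-25705077), which encodes a latent cytokine that restrains T cells, was read 636 and 730 times in the inputs (sgcontrol, then sgUsp5) and 1026 and 932 times in the RIP libraries. Its ratios of 0.09 (-0.06 to 0.25) and 0.03 (-0.10 to 0.16) on the log2 scale had counting intervals that included 0. The widened intervals were -1.20 to 1.40 in the inputs and -0.55 to 0.61 in the RIP libraries.

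**Figure D3:**
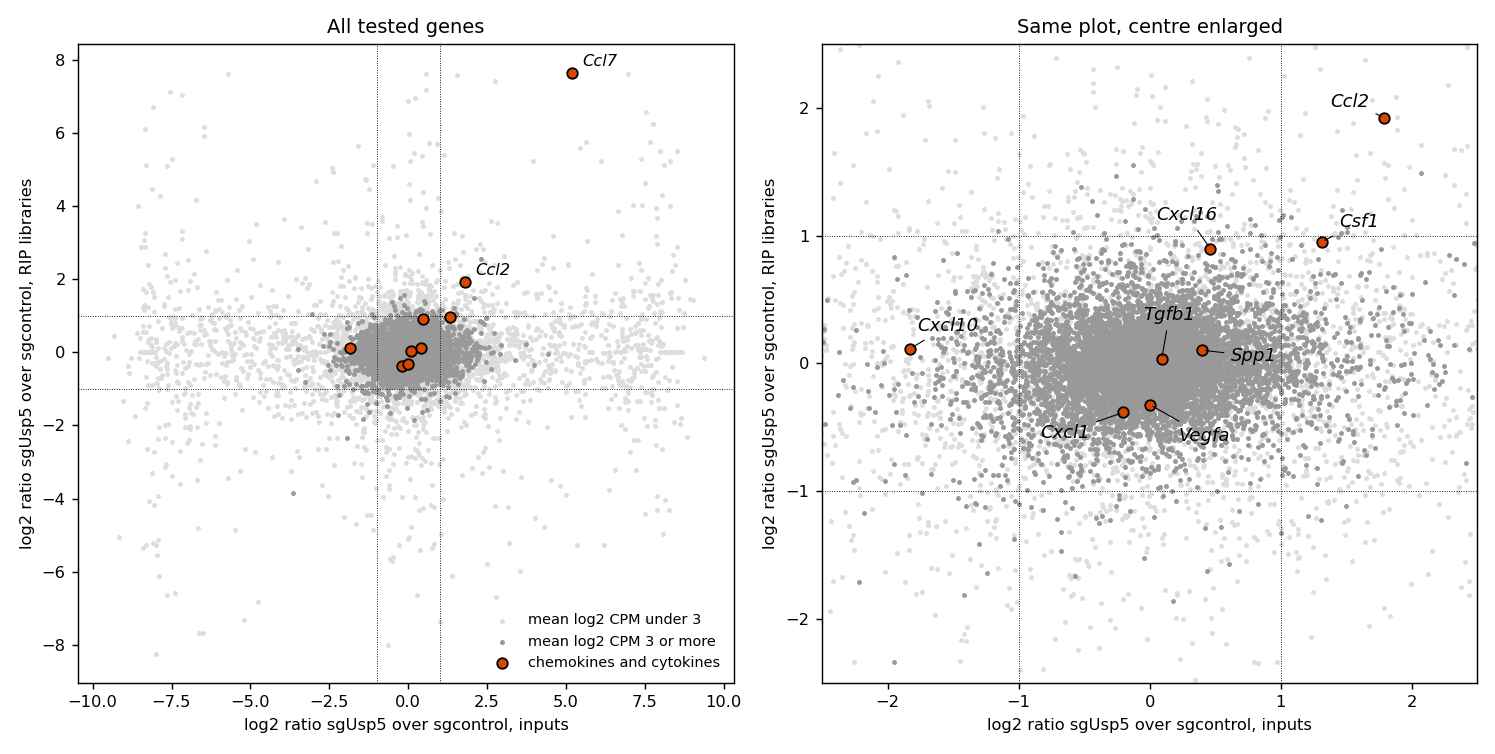
Log2 ratio of sgUsp5 over sgcontrol in the inputs (x axis) against the RIP libraries (y axis) for the 12920 genes compared, grey by abundance, with the chemokines and cytokines in orange; the right panel enlarges the centre, and dotted lines mark 2-fold. Ccl2 stands at 1.79 and 1.92, outside most genes at a mean log2 CPM of 3 or more, while the pale genes of low abundance, among them Ccl7, spread along both axes; ratios of genes with 0 reads rest on the 0.5 counts added and are no bounds.

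Upstream sequence from RefSeq (GRCm38.p6) was read for the 7 genes with an entry in the promoter table; Ccl2, Ccl7 and Cxcl16 had none. The 250 bases before the annotated start were searched on both strands for the outline of an NF-kB site, GGG and CC with any 5 bases between them. A narrower outline, GGGA and TTCC with any 2 bases between, has only matches that are also matches of the wide outline. The third outline, GAAA and GAAA with any 2 bases between, is that of an interferon response element. NF-kB is the transcription factor best known for inducing inflammatory chemokines. The wide outline was found in 45.8% of 32851 upstream windows of this length and the narrow one in 1.21%, and the interferon outline in 2.98%. Of the 7 genes, 6 held the wide outline (all but Spp1) and 3 the interferon outline (Cxcl10, Vegfa and Spp1). The 7 genes have 9 windows, because Vegfa and Spp1 have 2 each. A gene was counted if any of its windows matched, so these counts and the shares of windows are not in the same unit. The matches of Vegfa and Spp1 lie in 1 of their 2 windows each. The narrow outline was present for Cxcl1, Cxcl10 and Csf1, whose windows are shown because their input ratios with the Usp5 guide ran in different directions: near 0, below 0 and above 0. Capitals mark the narrow NF-kB outline and the interferon outline. The windows are chr5:90890995-90891244 (plus strand), chr5:92348890-92349139 (minus strand) and chr3:107760470-107760719 (minus strand), each written 5′ to 3′ towards the start.
Cxcl1: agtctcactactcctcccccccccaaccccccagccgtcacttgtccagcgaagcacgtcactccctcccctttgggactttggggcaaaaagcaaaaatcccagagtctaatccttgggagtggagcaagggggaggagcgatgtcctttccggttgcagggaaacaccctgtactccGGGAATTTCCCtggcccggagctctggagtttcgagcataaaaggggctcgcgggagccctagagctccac
Cxcl10: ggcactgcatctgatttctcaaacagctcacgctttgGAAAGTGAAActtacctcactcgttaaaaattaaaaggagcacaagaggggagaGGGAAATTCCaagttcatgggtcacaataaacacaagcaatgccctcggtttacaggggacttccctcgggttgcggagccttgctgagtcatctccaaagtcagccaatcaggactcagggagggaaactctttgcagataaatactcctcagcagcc
Csf1: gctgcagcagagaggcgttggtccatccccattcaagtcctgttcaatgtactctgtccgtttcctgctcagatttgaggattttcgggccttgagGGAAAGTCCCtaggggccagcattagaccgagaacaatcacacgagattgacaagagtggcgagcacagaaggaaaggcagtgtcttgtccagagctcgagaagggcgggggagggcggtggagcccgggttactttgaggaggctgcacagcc
In Cxcl1 the matches GGGAATTTCC and GGAATTTCCC overlap and begin 71 and 70 bases before the start. In Cxcl10 GGGAAATTCC begins 159 bases and the interferon outline GAAAGTGAAA 213 bases before it. In Csf1 GGAAAGTCCC begins 154 bases before it. Such matches are a description of letters and not of binding. RNA libraries do not measure these windows.

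RIP over input was then compared in each line, which asks which of these transcripts the YTHDF1 antibody recovered more than most other genes. TMM takes most genes to agree between RIP and input, which was not tested here. Spp1 and Cxcl1 were under-represented in the precipitate of both lines, by 2.43-fold to 3.14-fold. Csf1 and Vegfa were over-represented in both, by 1.53-fold to 2.28-fold. For Ccl2 the ratio was slightly below 1 in each line and not called. Without a control antibody among these libraries, binding to YTHDF1 and binding to the beads cannot be told apart.

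In sgcontrol cells 1 of the 9 genes compared (Csf1) was called higher in the RIP, beside 18.4% of all genes, and 2 (Cxcl1 and Spp1) were called lower, beside 15%. The widened interval left Csf1 higher, beside 5.87%, and Spp1 lower, beside 8.13%. In sgUsp5 cells 1 (Cxcl10) was called higher, beside 15.9%, and the same 2 (Cxcl1 and Spp1) were called lower, beside 13.7%. The widened interval left 0 higher, beside 4.64%, and Spp1 lower, beside 6.48%. On counting intervals, 29.6% of genes under log2 CPM 3, where Cxcl1 and Cxcl10 lie, were called higher in the sgUsp5 RIP. In that class 22.3% were called lower in the RIP of sgcontrol cells and 23% in that of sgUsp5 cells. Being called lower in both lines was found for 6.32% of all genes and higher in both lines for 6.83%, which includes 0 of the 9. The median log2 ratio of the 9 genes was -0.40 in sgcontrol and 0.31 in sgUsp5 cells, where that of all genes compared was 0.03 and 0.02.

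Spp1 had 256 CPM in the input and 105 CPM in the RIP of sgcontrol cells, a log2 ratio of -1.28 (-1.34 to -1.23). In sgUsp5 cells it had 338 and 113 CPM, a ratio of -1.58 (-1.63 to -1.52). Both RIP libraries lay below both inputs, and the widened intervals (-1.61 to -0.95 and -1.88 to -1.28) kept both calls. Cxcl1 had 4.38 and 1.57 CPM in the input and RIP of sgcontrol cells and 3.80 and 1.20 CPM in those of sgUsp5 cells. Its ratios were -1.47 (-1.96 to -1.01) and -1.65 (-2.23 to -1.13). Cxcl1 also lay lower in both RIP libraries than in both inputs, but on 38 to 125 reads, and with the widened intervals neither ratio was called.

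Csf1 had a log2 ratio of RIP over input of 1.19 (1.07 to 1.31, widened 0.37 to 2.13) in sgcontrol and 0.83 (0.75 to 0.91, widened 0.31 to 1.38) in sgUsp5 cells. For Vegfa the ratios were 0.93 (0.87 to 1.00, widened 0.52 to 1.38) and 0.61 (0.55 to 0.68, widened 0.20 to 1.05). Both growth factors were higher in the RIP of each line, and both reached a higher ratio in sgcontrol cells. For Cxcl16 the ratios were 0.32 (0.18 to 0.47) and 0.76 (0.64 to 0.88), and for Tgfb1 0.37 (0.22 to 0.51) and 0.31 (0.17 to 0.45). These lay above 0 on counting error in each line, but the widened intervals of both genes included 0 in both lines.

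Ccl2 had a log2 ratio of RIP over input of -0.40 (-0.69 to -0.11) in sgcontrol and -0.26 (-0.41 to -0.11) in sgUsp5 cells. The widened intervals included 0 in both lines (-2.21 to 1.83 and -1.20 to 0.76), and scaling by library totals brought the ratios to -0.22 and -0.13. Ccl7 in sgUsp5 cells gave -0.10 (-0.53 to 0.32; 0.03 when scaled by library totals), and in sgcontrol cells both libraries were at or under 3 reads, so no ratio is given. Cxcl10 was the exception in direction: -0.64 (-1.09 to -0.21) in sgcontrol and 1.30 (0.69 to 1.98) in sgUsp5 cells, where its input was low. Cxcl12 in sgUsp5 cells was 19.1-fold above the limit of 3 counts for its input, which had 0 reads. The lower bound of this log2 ratio was 3.91 on counting error and -2.81 when widened, which included 0.

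**Figure D4:**
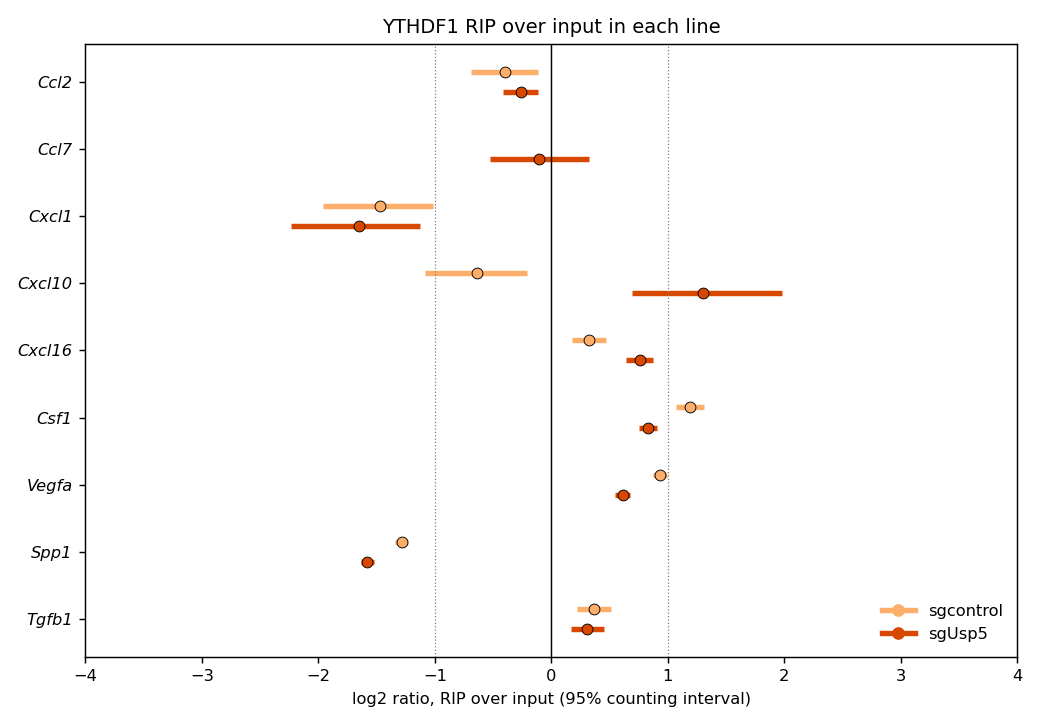
Log2 ratio of RIP over input for the 9 genes compared, in sgcontrol (pale) and sgUsp5 cells (dark), with 95% counting intervals; dotted lines mark 2-fold, and Ccl7 in sgcontrol cells is not drawn (2 and 0 reads). Spp1 and Cxcl1 lie beyond 2-fold lower in both lines, Csf1, Vegfa, Cxcl16 and Tgfb1 lie above 0 in both, and Cxcl10 lies on opposite sides, at -0.64 and 1.30.

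RIP was also tested against input in a fit that pairs the libraries of a line (quasi-likelihood test of edgeR with the line as a term; Benjamini-Hochberg adjustment over 12920 genes). With 4 libraries it leaves 1 residual degree of freedom. Any difference in enrichment between the lines counts as error in this fit. At an adjusted p under 0.05, 2 of the 9 genes were enriched, beside 10.2% of all genes, and 1 was depleted, beside 11.3%. Csf1 had a log2 ratio of 1.01 (edgeR adjusted p 0.00727), Vegfa of 0.77 (edgeR adjusted p 0.0083) and Spp1 of -1.43 (edgeR adjusted p 0.000292), each with the same direction in 2 of 2 lines. Over the alternatives run the adjusted p lay between 0.00209 and 0.215 for Csf1, between 0.00159 and 0.0211 for Vegfa and between 1.48e-14 and 0.00532 for Spp1. Csf1 lost its call in the fit without the block (adjusted p 0.215). Cxcl1, with a ratio of -1.57 and few reads, did not pass (edgeR adjusted p 0.46), nor did Cxcl16 (0.54, adjusted p 0.189), Tgfb1 (0.34, adjusted p 0.46) and Ccl2 (-0.33, adjusted p 0.597). The same holds for Ccl7 (edgeR adjusted p 0.758) and Cxcl10 (edgeR adjusted p 0.913). The labels do not say that the lines were lysed from separate cultures beyond the guide, so these p-values measure only the spread between these libraries.

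Whether recovery differed with the Usp5 guide was addressed by the ratio of enrichments, sgUsp5 over sgcontrol. Of the 9 genes 1 (Cxcl10) was called higher, beside 13.3% of all genes, and 0 were called lower, beside 13.8%. At a mean log2 CPM under 3, where Cxcl10 lies, 29.9% of 4214 genes were called higher. For Cxcl10 the log2 ratio was 1.94 (1.21 to 2.68). The RIP libraries of Cxcl10 differed by 3 reads, so this value rests on its input reads of 100 and 30, and with the widened interval (-2.49 to 5.21) it was not called. With widened intervals 0 of the 9 genes were called higher, beside 0.983%, and 0 lower, beside 0.859%. For Ccl2 the ratio was 0.14 (-0.18 to 0.45), which lies within 2-fold on counting error. Its widened interval (-1.63 to 2.08) reached beyond 2-fold in both directions. Cxcl16 had 0.43 (0.25 to 0.62), and Csf1, Vegfa and Spp1 had -0.36 (-0.50 to -0.22), -0.32 (-0.41 to -0.23) and -0.30 (-0.37 to -0.22). For these 4 genes counting error excluded 0, the size was under 2-fold, and the widened intervals included 0. Cxcl1 (-0.18) and Tgfb1 (-0.06) had counting intervals that included 0.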

How the data were processed

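RNA of 4 libraries, input and YTHDF1 RIP of Hepa 1-6 cells with a control guide or a guide for Usp5, was sequenced after depletion of ribosomal RNA. The deposited table holds raw counts of reads by gene. HISAT2 2.1.0, featureCounts 1.6.3 and the mm10 build are named, per the submitters' processing notes. Not given in the sources used here are the annotation release and how strand, multiple matches and duplicates were treated, so reads of overlapping or similar genes can be shared or lost. Columns were matched to samples by the short names in the labels, and 0 were left over.

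Counts were normalised with TMM (edgeR 4.0.16, R 4.3.3), and the 12920 genes averaging 1 CPM or more were compared. Log2 ratios had 0.5 counts added; intervals were Clopper-Pearson's, and from reciprocal counts for the ratio of enrichments. RIP was tested against input with glmQLFTest and the line as a block, because each RIP and its input come from the same lysate. Input and RIP of a line share that lysate, so sgUsp5 against sgcontrol was not tested. The alternatives were DESeq2 1.42.0, other scalings, filters, added counts, widened intervals and fold limits.

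The 10 genes and the lists were chosen with earlier results of these data known. All 10 genes are named. Lists of receptors, other chemokines, other cytokines, processing genes, NF-kB regulators and cell type markers were set but could not be matched to IDs. The code was checked on simulated counts.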

Additional observations from a re-analysis of the deposited data

Results flagged for a closer look

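Cxcl10 lay on opposite sides of no enrichment in the lines: RIP over input was -0.64 on the log2 scale in sgcontrol cells and 1.30 in sgUsp5 cells, with counting intervals that excluded 0 in each. The difference was not tested, since each line gave 1 library per fraction. The 4 values rest on 30 to 100 reads, and the widened intervals of both ratios included 0.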

How the results depend on the processing

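No called ratio changed sign among 225 recomputed log2 ratios of single genes; 211 stayed within the counting interval of the value in the report and 14 left it. Under library totals the median log2 ratio of RIP over input over all genes was 0.21 in sgcontrol and 0.15 in sgUsp5 cells, which brought the number of genes called higher in the sgcontrol RIP to 2 by adding Vegfa. With the widened intervals 1 gene was lower in the RIP of each line (Spp1), 0 were higher in the sgUsp5 RIP, 0 were lower in the sgUsp5 input and 0 were higher in the ratio of enrichments. A mean of at least 5 CPM, which removes Ccl7, Cxcl1 and Cxcl10, gave the same numbers, and 1 gene higher between the RIP libraries (Ccl2). With Ccl7 left out of the count, chosen after seeing the data, 1 gene was higher between the RIP libraries (Ccl2). With no filter 2 genes were higher in the sgUsp5 RIP over input (Cxcl10 and Cxcl12). With 1.5-fold, 2 genes were higher in the sgcontrol RIP, 4 in the sgUsp5 RIP and 4 between the RIP libraries, by construction. At 2-fold without an interval 2 genes were higher in the ratio of enrichments (Ccl7 and Cxcl10). Without the replicate block the joint test of the precipitates called 1 gene enriched (Vegfa). Other numbers of genes called stayed within 1.5 times. No library could be left out, since each group has 1. Depth limits Ccl7, Cxcl1, Cxcl10 and Cxcl12, and for Ccl7 and Cxcl12 a count of 0 allows up to 3 counts.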
